A study of Mus musculus with 7 samples.

Results

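The genes described here are those of the proteasome: every gene whose symbol begins with Psma, Psmb, Psmc, Psmd, Psme, Psmf or Psmg and a digit. The symbol picked 42 genes of the 17689 with a RefSeq identifier in the files, and they hold 44 of the 22704 rows with such an identifier, because Psmc1 and Psme2 have 2 rows each. Binding was measured by ChIP-seq in mouse E14 embryonic stem cells (ESCs), with 1 library for each of 7 conditions and no replicates. In Tip60-H3F ESCs, where 1 copy of the endogenous Tip60 gene carries a C-terminal tag of histidine and Flag epitopes, Flag-M2 ChIP was performed after the control knockdown (GFP KD) or Hdac6 KD. In Hdac6-H3F ESCs, which carry the same tag at the Hdac6 gene, Flag-M2 ChIP was performed upon GFP KD and in the library whose title says Tip60 KD. The genotype label of that last library instead reads Hdac6KD, and it is called here the library labelled Tip60 KD, after its title. Wild-type E14 ESCs without a tag or a knockdown gave the Flag-M2 background. An antibody against endogenous p400 was used after GFP KD or Hdac6 KD in cells whose label gives no tag. Knockdowns were made with lentiviral shRNAs, and cells were taken 72 hr after infection. ChIP signal cannot show how far the targeted proteins were depleted, nor whether the cells expressed ESC markers.

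The proteasome is the protease complex that degrades proteins marked with ubiquitin chains. Its core particle is a barrel of outer rings of alpha subunits (Psma genes) and inner rings of beta subunits (Psmb genes), of which Psmb5, Psmb6 and Psmb7 carry the proteolytic sites. The regulatory particle that caps the barrel recognizes, unfolds and feeds in substrates with a base of ATPases (Psmc genes) and a set of non-ATPase subunits (most Psmd genes). In cells exposed to interferon, Psmb8, Psmb9 and Psmb10 replace the standard catalytic subunits, and Psmb11 does so in the cortical epithelium of the thymus. Tip60 is a lysine acetyltransferase and p400 an ATP-dependent remodeler, and both belong to the Tip60-p400 complex. Per the paper, that complex binds near the TSS of many genes in ESCs, including differentiation genes that it silences. Hdac6 is a deacetylase best known from the cytoplasm.

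Values are reads within 500 bp of the TSS (−500 to 500 bp), given as whole reads or as rpm, reads per 1000000 of the reads each library was normalized to. Reads were recovered from the deposited coverage, in which every value tested was a whole multiple of the value of 1 read. The 7 libraries were normalized to between 9226752 and 31375502 reads, the Hdac6 libraries being the shallowest, and all genes together had a median of 9 to 21 reads. A read that overlapped no other covered 148 to 149 bp in the libraries of Hdac6 but 298 to 299 bp in all the others, so Hdac6 is compared with other libraries only by reads and not by coverage. Each ratio below compares 2 libraries, and the exact test and the 95% exact intervals cover the sampling of reads only, so none of them measures the variation between cultures. The libraries were amplified by PCR, and copies of 1 fragment cannot be told apart from independent fragments. In 39 of the 42 genes the TSS of the files lay within 50 bp of a transcript start of the same gene in the GENCODE annotation of mm9. 7 genes had another RefSeq start on the opposite strand within 1000 bp, among them Psma2 with Mrpl32, Psmc5 with Ftsj3 and Psma7 with Ss18l1, and reads there cannot be assigned to either gene. The signal of both rows of Psme2 is nearly the same, with 16 reads each for p400 upon GFP KD, since their starts lie close together. The second row of Psmc1 lies inside the gene and had 12 p400 reads upon GFP KD, against 28 at the row used. Psma8, Psmd3, Psmd11, Psmd13, Psme3, Psmg2 and Psmg4 were not analysed here.

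The promoters of 5 genes are shown, picked by p400 results and motif matches, so they do not show whether motifs go with a fall. Psmb5 and Psma3 had the smallest adjusted p-values upon Hdac6 KD. Psma2 and Psmg1 fell as well and were picked for their matches to the NRF1 motif. Psme2 had the highest ratio of all 42 genes. Each runs from 250 bp before the TSS to the TSS and the 49 bp after it, 5′ to 3′ on the transcribed strand in build mm9. Capitals mark matches to any of 5 motifs searched on both strands, the antioxidant response element (ARE, TGACNNNGC), the CCAAT box, and the motifs of NRF1 (GCATGCGC), ETS factors (CCGGAAG) and YY1 (AAGATGGCG).
Psmb5 (chr14:55236783-55237082, minus strand): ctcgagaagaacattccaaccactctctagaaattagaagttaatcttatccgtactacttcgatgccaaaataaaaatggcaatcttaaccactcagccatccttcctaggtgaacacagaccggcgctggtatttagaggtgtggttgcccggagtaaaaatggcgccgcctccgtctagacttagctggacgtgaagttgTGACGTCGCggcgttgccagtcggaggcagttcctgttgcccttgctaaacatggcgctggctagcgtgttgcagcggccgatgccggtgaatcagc
Psma3 (chr12:72075430-72075729, plus strand): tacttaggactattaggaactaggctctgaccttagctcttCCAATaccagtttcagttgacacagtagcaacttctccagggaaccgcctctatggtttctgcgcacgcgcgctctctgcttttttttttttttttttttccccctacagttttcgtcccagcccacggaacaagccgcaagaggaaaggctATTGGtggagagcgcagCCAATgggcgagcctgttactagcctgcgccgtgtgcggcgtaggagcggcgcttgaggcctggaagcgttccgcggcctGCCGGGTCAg
Psma2 (chr13:14705259-14705558, plus strand): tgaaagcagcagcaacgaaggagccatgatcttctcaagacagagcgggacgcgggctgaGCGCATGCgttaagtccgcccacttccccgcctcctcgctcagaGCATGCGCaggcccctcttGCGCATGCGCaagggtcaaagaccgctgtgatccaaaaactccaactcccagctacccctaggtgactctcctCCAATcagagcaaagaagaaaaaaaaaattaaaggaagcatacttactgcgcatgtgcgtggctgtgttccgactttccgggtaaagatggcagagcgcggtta
Psmg1 (chr16:96212461-96212760, minus strand): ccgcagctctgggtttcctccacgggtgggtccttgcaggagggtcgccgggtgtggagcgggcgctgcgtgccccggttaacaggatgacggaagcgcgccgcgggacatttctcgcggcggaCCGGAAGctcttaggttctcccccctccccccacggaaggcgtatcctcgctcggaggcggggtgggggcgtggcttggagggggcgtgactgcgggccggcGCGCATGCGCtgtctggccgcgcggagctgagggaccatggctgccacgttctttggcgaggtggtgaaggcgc
Psme2 (chr14:56209809-56210108, minus strand): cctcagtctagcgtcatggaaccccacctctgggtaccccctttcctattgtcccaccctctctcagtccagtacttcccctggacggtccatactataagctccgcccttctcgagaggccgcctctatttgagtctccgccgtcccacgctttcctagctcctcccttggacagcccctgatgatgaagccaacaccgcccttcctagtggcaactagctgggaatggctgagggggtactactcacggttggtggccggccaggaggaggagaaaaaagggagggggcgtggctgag
The ARE match of Psmb5 begins 47 bp before the TSS, and that of Psma3 begins 40 bp after it, on the opposite strand. Psma2 has 4 matches to the NRF1 letters between −190 and −125 bp, of which a pair overlap because the letters nearly read the same on both strands. Psmg1 has 2 overlapping matches, at −24 and −22 bp, and an ETS match at −126 bp. Psme2 has no match in this window. Psmd8 and Psmd5, not shown, also have no match to any of the 5 motifs. For p400 their adjusted p-values of 0.00336 and 0.0069 by the exact test came next after that of Psma3.

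Upon GFP KD, p400 was above the typical level at most proteasome genes. They had a median of 29.5 reads, against 21 for all genes, 35 of the 42 lay above the median of all genes and 21 above the upper quartile of 30 reads. Mean coverage, in the deposited unit of ppm, was 0.353 ppm for the 42 genes in the promoter window and 0.181 in the flanks 1500 to 2000 bp away, a ratio of 1.95, against 1.66 for all genes. The smoothed mean profile was highest 40 bp after the TSS, at 0.428 ppm, while that of all genes reached 0.285 at 60 bp. Coverage from −100 to 300 bp exceeded that from −600 to −200 bp at 32 of the 42 genes (76.2%), against 61.5% of all genes. Untagged Flag reads were high at these genes as well, with a median of 16.5 against 12 for all genes. In that library 36 of the 42 lay above the median of all genes and 21 above the upper quartile. Its ratio of promoter to flank coverage was 1.24, against 1.03 for all genes. No library gave the background of the p400 antibody, so these p400 levels are not levels above background. They are a description, and no test compared the 42 genes with the rest.

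**Figure D1:**
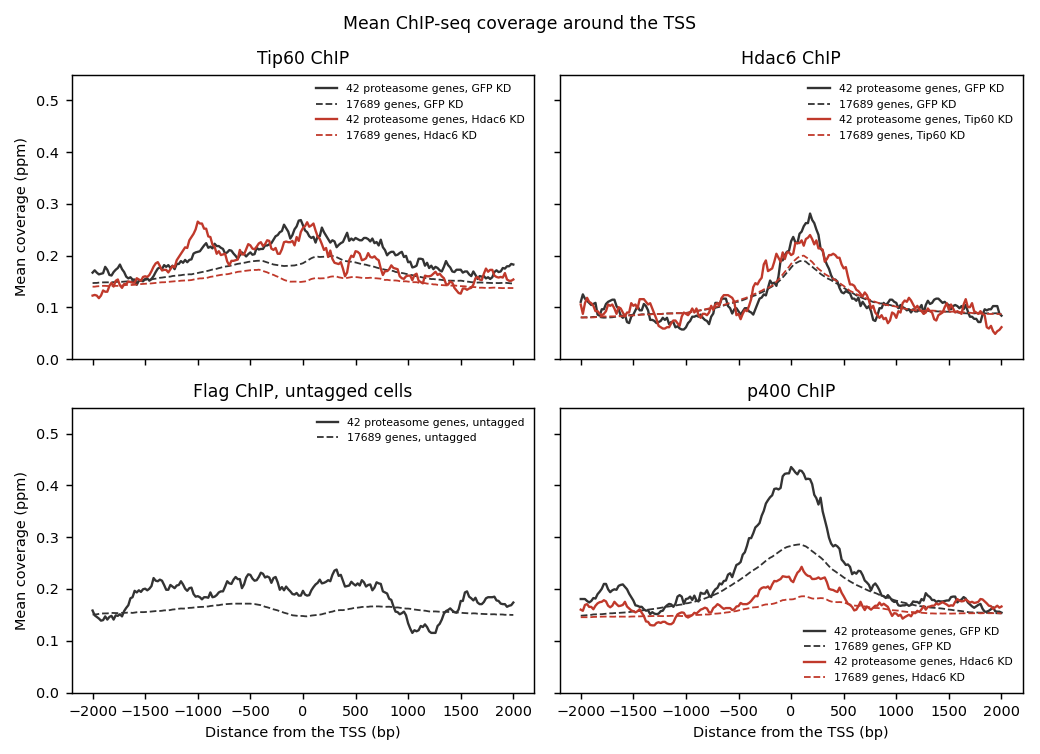
Mean coverage in ppm (vertical axis) by distance from the TSS in bp (horizontal axis) for the 42 proteasome genes (solid lines) and all 17689 genes (dashed lines), in the GFP KD or untagged libraries (black) and upon the other knockdown (red), with 1 library per line. The solid p400 line peaks at 0.428 ppm after smoothing upon GFP KD and at 0.234 upon Hdac6 KD, and the levels of the Hdac6 panel cannot be set against the others because the reads there span fewer bp.

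The p400 level differed widely among the 42 genes. Psma3, an alpha-ring subunit, had the most with 56 reads (2.21 rpm), followed by the assembly chaperone Psmd5 with 49 reads (1.94 rpm) and the base ATPase Psmc5 with 44 reads (1.74 rpm). Psmd10, a chaperone of regulatory-particle assembly also known as gankyrin and the only member on the X chromosome, had the fewest with 7 reads (0.277 rpm). Next came Psme2 with 16 reads, Psmd9 with 17, and Psmd6 and Psmb10 with 18 each, so Psmd10 stood apart from the rest at the low end. Within the groups, the alpha ring ran from 20 reads (Psma5) to 56 (Psma3), the beta ring from 26 (Psmb4) to 40 (Psmb1), the ATPases from 25 (Psmc4) to 44 (Psmc5) and the other regulatory-particle subunits from 18 (Psmd6) to 39 (Psmd1). The stretch from 26 to 40 reads lay within all 3 ranges of the alpha ring, beta ring and ATPases. The immune and thymus counterparts ran from 18 (Psmb10) to 30 (Psmb9) reads, with a median of 23 against 33 in the beta ring. Psmf1, a proteasome inhibitor, had 31 reads, and Psmc3ip, a recombination factor named after its interaction with an ATPase and no proteasome subunit, had 36.

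**Figure D2:**
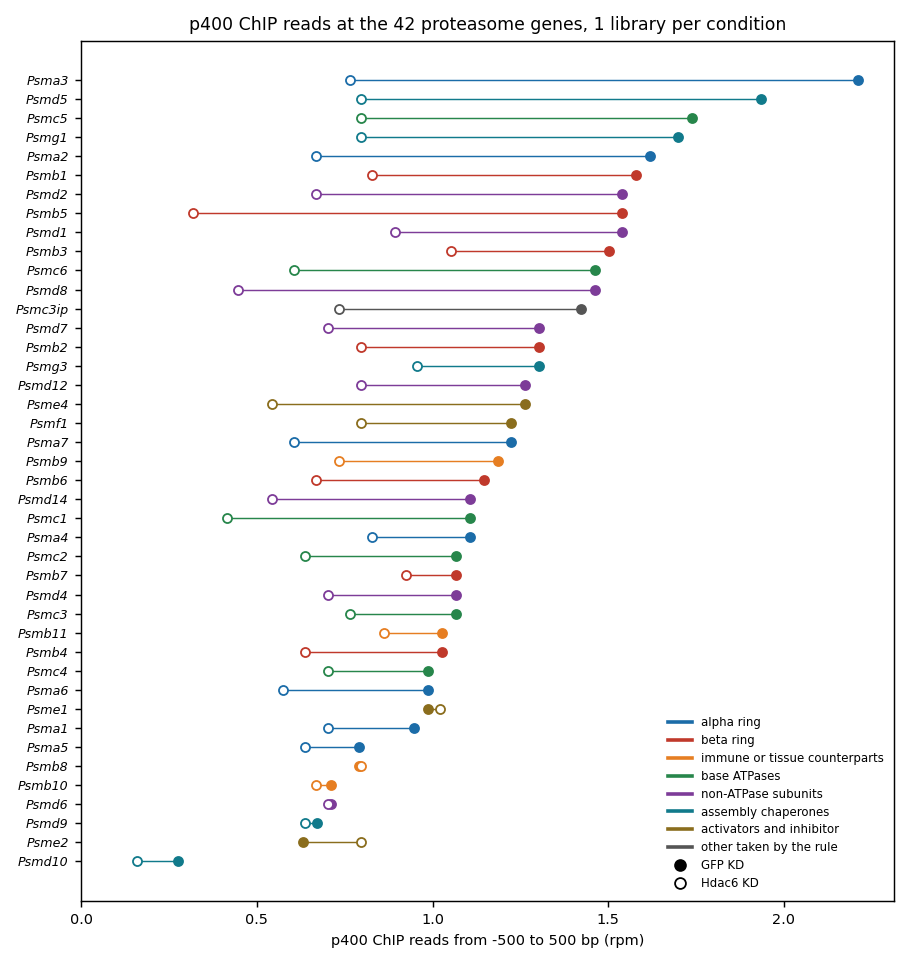
p400 reads in rpm within 500 bp of the TSS (horizontal axis) for each of the 42 genes (vertical axis, ordered by the GFP KD value), upon GFP KD (filled circles) and Hdac6 KD (open circles), coloured by role, with 1 library per condition. The filled circles run from 0.277 (Psmd10) to 2.21 (Psma3), the open circles from 0.159 to 1.05, and at 3 genes (Psme2, Psme1 and Psmb8) the open circle lies to the right.

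Tip60 at the same promoters was compared with the untagged control, to ask where it exceeded the Flag background. The proteasome genes had a median of 15 Tip60 reads, against 13 for all genes, but their background was high as well, with a median of 16.5 untagged reads against 12. Tip60 was at least 1.5-fold above the control at 11 genes and at least 1.5-fold below it at 6, against 31.7% and 14.7% of all genes, while the shares of the 42 genes were 26.2% and 14.3%. No member passed the exact test at an adjusted p below 0.05, which 1.66% of all genes did in either direction, and at an unadjusted p below 0.05 there were 2 higher and 0 lower, against 9.04% and 1.87% of all genes. Summed over the 42 genes the ratio was 1.12 (95% exact interval 1.01 to 1.24), against 1.20 for all genes. With equal totals of reads over all genes the ratio of the 42 genes was 0.930, so its side of 1 rests on the scaling.

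The pair with an unadjusted p below 0.05 were Psmd5 and Psmd12. Psmd5, a chaperone of ATPase assembly, had 36 Tip60 reads (1.69 rpm) and 14 untagged reads (0.605 rpm), a ratio of 2.79 (1.47 to 5.60) with an adjusted p of 0.0556 by the exact test. Psmd12, a subunit of the lid of the regulatory particle, had 26 Tip60 reads (1.22 rpm) and 10 untagged reads (0.432 rpm), a ratio of 2.82 (1.32 to 6.55) with an adjusted p of 0.167 by the exact test. In the other direction the lowest ratios were those of Psmd8, at 0.447 (0.157 to 1.13), and Psma2, at 0.477 (0.212 to 1.01). By group, the chaperones had the highest ratio of summed reads, 1.55 (1.14 to 2.13) over 5 genes. The beta ring had the lowest, 0.883 (0.684 to 1.14) over 7. Summed Tip60 and untagged reads were 103 and 72 for the chaperones and 114 and 140 for the beta ring. Tip60 and p400 levels were also set side by side. Of the 21 genes above the upper quartile for p400, 6 had Tip60 at least 1.5-fold above the untagged control and 10 had it below the control. Of the other 21 genes 5 had it at least 1.5-fold above. Over the 42 genes, 11 were at least 1.5-fold above and 17 below the control, and 31.7% of all genes were at least 1.5-fold above. The same counts were not made for all genes above the p400 quartile, so these are a description only. Psma3 lay at the 99.0th percentile of all genes for p400 and at the 40.5th for Tip60, with 0.515 Tip60 rpm against 0.475 in the untagged control. Psmd5, Psmc5 and Psmg1, next in p400 level, lay at the 97.8th, 95.9th and 95.3rd percentiles for p400. For Tip60 they lay at the 98.4th, 97.95th and 88.03rd. Psmc5 had 1.59 Tip60 rpm against 0.994 in the untagged control, and Psmg1 had 1.03 against 0.562. Psma2, which followed them, lay at the 93.8th for p400 and the 40.5th for Tip60. Among the 21 genes above the upper quartile for p400, 7 were also above that for Tip60. Psmb5 lay at the 91.8th percentile for p400 and at the 16.8th for Tip60, with 0.328 Tip60 rpm against 0.562.

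Hdac6 upon GFP KD was at least 1.5-fold above the untagged control at 23 genes (54.8%) and at least 1.5-fold below it at 0, against 60.4% and 11.6% of all genes. The exact test called 6 of the 42 (14.3%), all higher, against 24.9% of all genes higher and 25.2% in either direction. They were Psmb11, Psmd12, Psmb8, Psma1, Psmd7 and Psma7, of which Psmd12 had the highest ratio. Psmd12 had 20 Hdac6 reads (1.73 rpm) against 10 untagged reads (0.432 rpm), a ratio of 4.00 (1.79 to 9.56) with an adjusted p of 0.0038 by the exact test. Psmb11 had 26 reads (2.24 rpm) against 15 (0.648 rpm), a ratio of 3.46 (1.77 to 7.03), and Psmb8 had 23 reads (1.99 rpm) against 15 (0.648 rpm), a ratio of 3.06 (1.53 to 6.31). None of the 7 beta-ring genes reached 1.5-fold, with a summed ratio of 1.18 (0.892 to 1.56), while the alpha ring stood at 2.00 (1.5 to 2.65). The lowest ratios were those of Psmb4, at 0.692 (0.285 to 1.52), and Psmb6, at 0.799 (0.254 to 2.18), both in the beta ring. Hdac6 coverage lay after the TSS: coverage from −100 to 300 bp exceeded that from −600 to −200 bp by a factor of 2.23 over the 42 genes and of 1.46 over all genes, and the smoothed profile was highest at 180 bp.

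The ratio of Hdac6 to untagged reads moved with GC content, also far from promoters: in flank windows it was 0.165 at 25 to 27.5% GC and 3.41 at 65 to 67.5%. The proteasome promoters had a median GC content of 56.2%, against 55.3% for all genes, and after division by the flank ratio at the same GC content 2 members were at least 1.5-fold higher, 15 were at least 1.5-fold lower and 0 passed the exact test. Of all genes, 20.3% were then higher and 24.5% lower by that fold, and 0.0113% passed as higher. With equal totals over all genes, 5 members were higher, 12 lower and 0 passed, against 24.1% of all genes higher, 31.0% lower and 1.32% past the test as higher. The excess of Hdac6 over background at these genes therefore depends on the scaling and on the correction for GC content.

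Upon Hdac6 KD, p400 fell over the proteasome genes as a set and at 11 of them singly. It was at least 1.5-fold lower at 27 of the 42 (64.3%) and at least 1.5-fold higher at 0, against 45% and 8.38% of all genes. The exact test called 11 (26.2%), all lower, against 12.4% of all genes lower and 12.7% in either direction. Summed over the 42 genes, reads went from 1281 upon GFP KD to 931 upon Hdac6 KD, a ratio of rpm values of 0.586 (0.538 to 0.638), against 0.682 for all genes, and the median ratio was 0.604, against 0.706. More reads give the exact test more calls, and the 42 genes had 29.5 reads in the median against 21, so the shares of calls are not at equal depth. The mean flank coverage of the 42 genes was 0.181 ppm in the GFP KD library against 0.170 upon Hdac6 KD, and the ratio of promoter to flank coverage went from 1.95 to 1.21. Since p400 was lower over the whole set of genes, scaling to equal totals moves the median ratio of all genes up by 0.55 on the log2 scale. Relative to that shared fall, the summed ratio of the 42 genes was 0.860, with 9 genes at least 1.5-fold lower, 2 higher and 1 past the exact test as lower, against 15.9%, 23.7% and 0.758% of all genes. After the same correction for GC content, 29 genes were at least 1.5-fold lower and 11 passed, with Psmb1 called in place of Psme4, against 39.2% and 9.98% of all genes.

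The gene past the test under both scalings was Psmb5, the subunit with the chymotrypsin-like site and the main target of the drug bortezomib. It had 39 p400 reads (1.54 rpm) upon GFP KD and 10 (0.319 rpm) upon Hdac6 KD, a ratio of 0.207 (0.0921 to 0.422) with an adjusted p of 1.43e-04 by the exact test. Its place among all genes went from the 91.8th to the 11.9th percentile. With equal totals the ratio was 0.303 with an adjusted p of 0.0354 by the exact test, and it was 0.187 after the GC correction. The Flag libraries at Psmb5 had 0.328 Tip60 rpm in the GFP KD library and 0.313 in the Hdac6 KD library, 0.604 and 0.650 Hdac6 rpm upon GFP KD and in the library labelled Tip60 KD, and 0.562 in the untagged control. The start of Psmb11 lies 7318 bp away on the opposite strand, and there p400 had 26 reads (1.03 rpm) and 27 reads (0.861 rpm), a ratio of 0.838 (0.470 to 1.49).

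In the rest of the beta ring the ratios ran from 0.524 (Psmb1) to 0.866 (Psmb7) and no other gene passed the test. Psmb6, with the caspase-like site, had 29 and 21 reads, and Psmb7, with the trypsin-like site, had 27 and 29 reads, a ratio of 0.866 (0.495 to 1.52). The 3 standard catalytic subunits thus had ratios of 0.207, 0.584 and 0.866, and the interval of Psmb5 lay below that of Psmb7. Over the 7 genes the summed ratio was 0.570 (0.464 to 0.699). The alpha ring, whose subunits form the gate of the barrel, stood at 0.538 (0.434 to 0.664), and all 7 genes had ratios below 1. Psma3 had 56 and 24 reads (2.21 and 0.765 rpm), a ratio of 0.346 (0.205 to 0.567) with an adjusted p of 5.72e-04 by the exact test. Psma2 had 41 and 21 reads (1.62 and 0.669 rpm), a ratio of 0.413 (0.232 to 0.716) with an adjusted p of 0.0156 by the exact test. Psma5, the alpha subunit with the least p400, had 20 reads in each library, a ratio of 0.807 (0.412 to 1.58).

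In the regulatory particle, the 6 ATPases had a summed ratio of 0.528 (0.417 to 0.666), and Psmc1, Psmc5 and Psmc6 passed the test. Psmc5 had 44 and 25 reads, and Psmc4 25 and 22, with ratios of 0.458 (0.269 to 0.765) and 0.710 (0.382 to 1.31). The 8 non-ATPase subunits had a summed ratio of 0.545 (0.446 to 0.665), with 7 of them at least 1.5-fold lower, and Psmd2 and Psmd8 passed the test. Psmd8, a subunit of the lid, had 37 and 14 reads (1.46 and 0.446 rpm), a ratio of 0.305 (0.152 to 0.578) with an adjusted p of 0.00336 by the exact test. Psmd6 had 18 and 22 reads, a ratio of 0.986 (0.505 to 1.95), the highest of its group. Psmd14, the deubiquitinase of the lid, had 28 and 17 reads, a ratio of 0.490 (0.251 to 0.927) with an adjusted p of 0.126 by the exact test; it is named here for its role, after its values were seen.

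Among the 5 assembly chaperones, Psmd5 and Psmg1 passed the test. Psmd5 had 49 and 25 reads (1.94 and 0.797 rpm), a ratio of 0.412 (0.244 to 0.679) with an adjusted p of 0.0069 by the exact test. Psmg1, which starts the assembly of the alpha ring, had 43 and 25 reads (1.70 and 0.797 rpm), a ratio of 0.469 (0.274 to 0.785). Psmd10 had 7 and 5 reads, too few to show a change of this size, with an interval of 0.144 to 2.11. Of the activators, Psme4, the nuclear activator also called PA200, had 32 and 17 reads, a ratio of 0.429 (0.223 to 0.795) with an adjusted p of 0.0470 by the exact test, which was 0.341 after the GC correction.

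The 3 genes with a ratio above 1, Psme2, Psme1 and Psmb8, all belong to the interferon-induced form of the proteasome. Psme2, which with Psme1 forms the interferon-induced activator ring, had 16 reads upon GFP KD (0.632 rpm) and 25 upon Hdac6 KD (0.797 rpm), a ratio of 1.26 (0.647 to 2.53). Psme1 had 25 and 32 reads (0.988 and 1.02 rpm), a ratio of 1.03 (0.593 to 1.82). Psmb8 had 20 and 25 reads, Psmb10 18 and 21, and Psmb9 30 and 23, with ratios of 1.01, 0.941 and 0.618. The interval of each of these 5 genes held 1, and the 4 immune and thymus counterparts had a summed ratio of 0.824 (0.613 to 1.11). That interval overlaps those of the alpha ring, the beta ring and the ATPases, and the difference between the groups was not tested. The p400 level of the 5 interferon-induced genes upon GFP KD was 16 to 30 reads, against a median of 29.5 over the 42. These 5 genes were not a role group of their own. At Psmb8 and Psmb10 the TSS used lay 210 and 287 bp from the nearest annotated start of the gene. Rnf31 starts 769 bp from Psme2 on the opposite strand. The group of activators and inhibitor, which holds Psme1 and Psme2, had a summed ratio of 0.768 (0.577 to 1.02). Outside the 5 genes, Psmd6 and Psmd9 also had ratios near 1, at 0.986 and 0.949. Psmf1 had 31 and 25 reads, a ratio of 0.651 (0.368 to 1.14), and Psmc3ip had 36 and 23, a ratio of 0.515 (0.292 to 0.894) with an adjusted p of 0.0935 by the exact test.

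**Figure D3:**
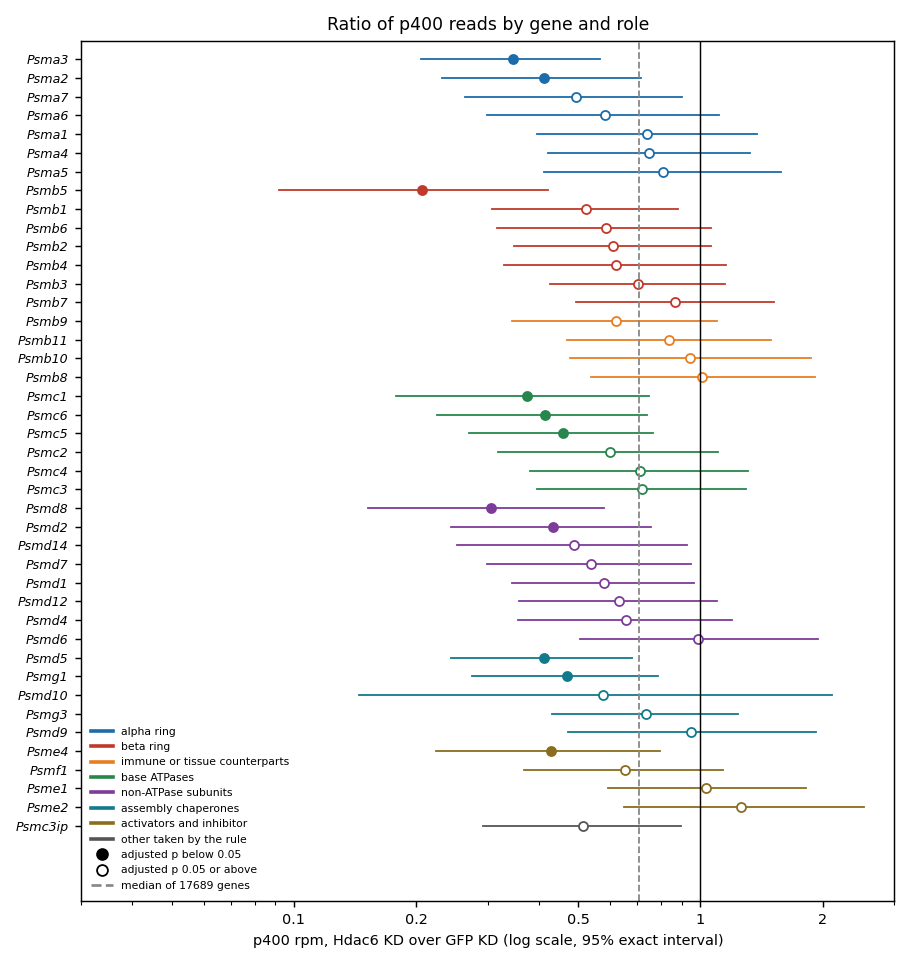
Ratio of p400 rpm upon Hdac6 KD to that upon GFP KD (horizontal axis, log scale) for each of the 42 genes (vertical axis), grouped and coloured by role, with 95% exact intervals as lines, filled circles for the 11 genes with an adjusted p below 0.05 and a dashed line at 0.706, the median of all genes. Psmb5 lies at 0.207, and Psmb8, Psme1 and Psme2 lie at or to the right of 1.

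Tip60 at the same genes showed no call upon Hdac6 KD. It was at least 1.5-fold lower at 12 (28.6%) and at least 1.5-fold higher at 8 (19.0%), against 34.2% and 14.7% of all genes. The exact test called 0 of the 42 in either direction, against 0.543% of all genes, and at an unadjusted p below 0.05 there were 4 lower and 2 higher, against 9.07% and 2.58% of all genes. Summed reads gave a ratio of 0.925 (0.829 to 1.03), against 0.840 for all genes, which was 1.10 with equal totals and 1.11 after the GC correction. The smallest p was that of Psme4, with 17 reads upon GFP KD (0.797 rpm) and 4 upon Hdac6 KD (0.209 rpm), a ratio of 0.262 (0.0641 to 0.803) with an adjusted p of 0.246 by the exact test. In the other direction Psmc6 had 10 and 21 reads (0.469 and 1.10 rpm), a ratio of 2.34 (1.05 to 5.56), and Psmb7 had 15 and 28 reads (0.703 and 1.46 rpm), a ratio of 2.08 (1.07 to 4.19). At Psmb5, where p400 fell most, Tip60 had 7 and 6 reads, and the interval of its ratio was too wide to show a change. Psmb10 and Psmb11 each had 21 and 7 reads, a ratio of 0.371 (0.133 to 0.907) with an adjusted p of 0.321 by the exact test. The median of 15 Tip60 reads limits what could be called at single genes. Background limits it too: mean promoter coverage for Tip60 was 0.234 ppm upon GFP KD and 0.218 upon Hdac6 KD, against 0.210 in the untagged control. With the untagged coverage so close to both, a fall of Tip60 above background would move these ratios little. The absence of calls therefore does not show that Tip60 was unchanged.

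Hdac6 in the library labelled Tip60 KD was close to that upon GFP KD in sum. It was at least 1.5-fold higher at 6 genes and at least 1.5-fold lower at 6, that is 14.3% each, against 20.5% and 19.1% of all genes. The exact test called 0 of the 42 and 0% of all genes, and at an unadjusted p below 0.05 there were 2 higher and 0 lower among the 42, against 1.70% and 1.03% of all genes. Summed reads gave a ratio of 1.07 (0.949 to 1.21), against 1.03 for all genes. Psmg1 had the highest ratio, with 12 reads (1.04 rpm) upon GFP KD and 21 (2.28 rpm) in the library labelled Tip60 KD, a ratio of 2.20 (1.03 to 4.90). Psme2 had 9 and 15 reads, a ratio of 2.09 (0.858 to 5.42). Psmd10 had 7 reads and 1 read, a ratio of 0.179 (0.00398 to 1.40).

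**Figure D4:**
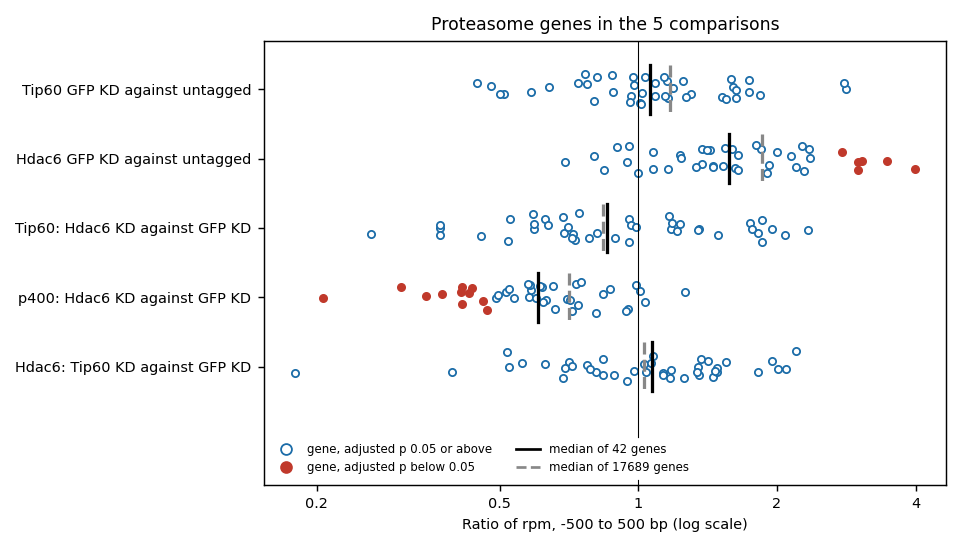
Ratio of rpm within 500 bp of the TSS (horizontal axis, log scale) in each of the 5 comparisons (vertical axis), with 1 circle for each of the 42 proteasome genes, filled red where the adjusted p of the exact test was below 0.05, and the medians of the 42 genes (black line) and of all 17689 genes (dashed grey line). The black line lies left of the dashed line for p400 (0.604 against 0.706) and for the comparisons of Tip60 (1.06 against 1.17) and Hdac6 (1.57 against 1.86) with the untagged control.

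Of 29 other genes listed for ubiquitin supply, shuttling, assembly and control of the proteasome, 23 were found in the files. For p400 upon Hdac6 KD, 16 were at least 1.5-fold lower and 1 higher, with a median ratio of 0.565, and 5 passed the exact test, all lower: Adrm1, the ubiquitin receptor of the regulatory particle, Rps27a and Ubb, which encode ubiquitin, Txnl1, a thioredoxin bound to the regulatory particle, and Nfe2l2, a transcription factor of the oxidative stress response. Rps27a had 48 and 13 reads, a ratio of 0.218, and Nfe2l2 41 and 16, a ratio of 0.315. Nfe2l1, the factor that raises transcription of proteasome genes when the proteasome is inhibited, did not pass the test for p400. For Tip60 against the untagged control 10 of the 23 were at least 1.5-fold higher. For Hdac6 against the untagged control 17 were at least 1.5-fold higher and 12 passed the test, and in the other pair of comparisons 0 passed.

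The promoters of the proteasome genes were searched for the letters of the 5 motifs in the 300 bp shown above. ETS letters were present in 15 of the 42 (35.7%), against 11.6% of all 17689 promoters. The ARE, the element through which Nfe2l1 and Nfe2l2 act, was matched in 9 (21.4%), against 13.0% of all. YY1 letters were found in 4 (9.52%) against 2.11%, NRF1 letters in 3 (7.14%) against 3.22%, and the CCAAT box in 15 (35.7%) against 37.2%. Of the 11 genes called lower for p400, 5 held the ETS letters, 4 the ARE (Psmb5, Psma3, Psmc6 and Psme4), 3 the NRF1 letters (Psma2, Psmc5 and Psmg1), 3 the CCAAT box and 1 the YY1 letters. Of the 31 genes not called, the counts were 10, 5, 0, 12 and 3 in the same order. A match is a description of the letters, and no binding of these factors was measured. NRF1 here means nuclear respiratory factor 1, a factor other than Nfe2l1.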

How the data were processed

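ChIP-seq coverage was measured in 7 libraries. Per the methods and the labels, the authors collapsed single-end reads by sequence, mapped them to mm9 with Bowtie (version not given in the sources used here) after CASAVA 1.8.2, placed multiple matches at random, extended reads, removed simple repeats and deposited coverage signal in ppm every 20 bp from −2000 to 2000 bp around each TSS. The stated extension is 150 bp, but isolated reads in the Tip60, untagged and p400 files spanned about 299 bp. Signal was divided by the value of 1 read (all values whole multiples within 0.02) and by the span, and rounded to reads. For each gene the first row was used, and Python 3.11.15, numpy 2.4.6 and scipy 1.17.1 were used for all steps. Ratios are of reads per normalizing read. Genes were called at 1.5-fold, and by a two-sided exact binomial test of the reads of both libraries. Its p-values were adjusted by the Benjamini-Hochberg method over all 17689 genes (adjusted p below 0.05). The test was also run on simulated independent Poisson reads. Those held no PCR copies and no variation between cultures, so its error rates under either were not checked. Named were the catalytic subunits and counterparts, the extremes of p400 in each role group, the genes called (5 at most) and 2 of the other direction in each comparison, and Psmc3ip and Psmf1; the other called genes and Psmd14 were named after their values were seen. Alternatives were other windows, equal totals, equal flank totals, every row, 10 reads or more, removal of the 1% of genes with the most untagged reads, a GC correction in bins of 2.5 points from flank windows, 2-fold and an adjusted p below 0.01. The members and lists were chosen with earlier results of these data known.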

Additional observations from a re-analysis of the deposited data

How the results depend on the processing

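No paired analysis was possible because the labels give no replicate numbers and each condition has 1 library, so leaving out a library was not possible. Of the alternatives tried for counts, summed ratios, levels and sides, 114 stayed within the limits, 52 moved, and 5 ratios whose interval excluded 1 turned to its other side; the cause was not tested. Ratios whose interval held 1 also crossed it under some alternatives.

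Tip60 over the untagged control had a summed ratio of 1.12, which was 0.993 in the upstream window and 0.930 with equal totals. The 11 genes past 1.5-fold became 6 in the window of 1000 bp, 3 with equal totals and 2 at 2-fold. The count of 0 past the exact test became 1 in the window of 1000 bp and 1 with equal flank totals. The share of all genes past 1.5-fold went from 31.7% to 21.0% in that window and 21.0% with equal totals. Past the test as higher were 2.07% of all genes in that window and 1.78% with equal flank totals. For Hdac6 over the untagged control (1.65) the summed ratio was 2.13 within 250 bp, 1.36 within 1000 bp, 2.32 downstream, 0.972 upstream, 0.848 with equal totals, 1.45 with equal flank totals and 0.781 after the GC correction. The 23 genes past 1.5-fold became 13 within 1000 bp, 9 upstream, 5 with equal totals, 2 after the GC correction and 12 at 2-fold. The 6 past the test became 1 within 250 bp, 0 upstream, 0 with equal totals, 3 with equal flank totals, 0 after the GC correction and 3 at an adjusted p below 0.01 by the exact test. Upstream, the ratios of Psmd12, Psma1 and Psmd7 fell to 0.999, 0.333 and 0.666. Of all genes, 60.4% were past 1.5-fold for Hdac6 within 500 bp. That share was 50.7% within 1000 bp, 42.2% upstream, 24.1% with equal totals and 20.3% after the GC correction. Past the test as higher were 24.9% of all genes, which became 12.7% within 250 bp and 18.4% with equal flank totals. That share was 1.18% upstream, 1.32% with equal totals and 0.0113% after the GC correction.

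For Tip60 upon Hdac6 KD, the 12 genes past 1.5-fold lower became 7 within 1000 bp, 21 downstream, 7 with equal totals, 7 after the GC correction and 5 at 2-fold, and the summed ratio (0.925) was 1.10 with equal totals and 1.11 after the GC correction. The 8 genes past 1.5-fold higher became 4 within 1000 bp, 13 within 250 bp, 12 downstream, 11 with equal totals and 12 after the GC correction. Within 1000 bp, 1 gene passed as higher, Psmc6, with a ratio of 2.72 and an adjusted p of 0.0284 by the exact test. In that window 0.147% of all genes passed as higher. Of all genes, 34.2% were past 1.5-fold lower within 500 bp. That share was 26.6% within 1000 bp, 41.9% downstream, 26.7% with equal totals and 24.7% after the GC correction. The share past 1.5-fold higher, 14.7%, became 10.4% within 1000 bp, 19.5% within 250 bp and 20.0% downstream. It was 23.0% with equal totals and 22.2% after the GC correction. For p400 upon Hdac6 KD, the 11 genes past the test became 4 within 250 bp, 2 downstream, 0 upstream, 1 with equal totals and 4 at an adjusted p below 0.01 by the exact test. The 27 past 1.5-fold became 9 with equal totals and 13 at 2-fold, and the summed ratio was 0.658 within 1000 bp and 0.860 with equal totals. In none of the 10 alternatives computed did it exceed 1. Past the test as lower were 12.4% of all genes, which became 3.70% within 250 bp, 2.17% downstream, 0.418% upstream and 0.758% with equal totals. Past 1.5-fold lower were 45% of all genes, which became 15.9% with equal totals. For Hdac6 in the library labelled Tip60 KD, the 6 genes past 1.5-fold lower became 12 within 250 bp, 11 downstream, 13 upstream and 2 at 2-fold, and the summed ratio (1.07) was 0.990 within 250 bp, 0.923 downstream and 1.25 upstream. The 6 genes past 1.5-fold higher became 19 upstream.

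With the flank signal subtracted, the ratio of downstream to upstream coverage was 1.49 and 1.24 for Tip60 upon GFP KD and Hdac6 KD, 16.1 and 3.46 for Hdac6 upon GFP KD and in the library labelled Tip60 KD, 0.697 for the untagged control, and 2.01 and 5.50 for p400 upon GFP KD and Hdac6 KD. Without subtraction the p400 ratios were 1.39 and 1.25, with 32 and 26 genes higher downstream. Upstream coverage lay close to the flank for p400 upon Hdac6 KD (0.180 against 0.170 ppm) and for Hdac6 upon GFP KD (0.105 against 0.0962 ppm). After subtraction of untagged coverage, brought first to the read span of each tagged library, promoter levels were 0.0234 and 0.00715 ppm for Tip60 and 0.0679 and 0.0793 ppm for Hdac6, in the same order. With 9 to 21 reads per gene in the median, changes at single genes could be called only where they were large.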
